A study of Mus musculus with 6 samples.

Results

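Fertilization-related genes of the oocyte were examined in matured oocytes of aged mice: those for sperm binding, membrane fusion and the block to polyspermy. The 9 genes were taken by symbol from the table of deposited counts, which holds 53465 genes. They are *Izumo1r*, *Cd9*, *Cd81*, *Itga6*, *Itgb1*, *Itgav*, *Astl*, *Snap23* and *Nsf*.

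A sperm that has crossed the zona pellucida attaches to the oocyte membrane when IZUMO1 on its head binds JUNO, the folate receptor-like protein encoded by *Izumo1r*. Tetraspanins organize the membrane at the site of fusion. After fusion, cortical granules under the membrane are released by SNARE-driven exocytosis, and the protease ovastacin that they hold cleaves the zona protein ZP2, so that further sperm no longer bind. Transcription is largely silent in the fully grown oocyte, and its messages are stored ones.

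RNA sequencing compared 3 control pools with 3 pools matured with 10 μM quercetin, a plant flavonol with antioxidant activity, to ask how the compound changes the transcripts of aged oocytes. All pools came from female Kunming mice 9 to 10 months old that had been primed with gonadotropin, and each held 15 oocytes at the MII stage (metaphase of the second meiotic division) from 3 mice, collected after 16 h of in vitro maturation (IVM) without cumulus cells. Control medium had no quercetin, and the sources used here do not say whether it held the solvent. Because mice and oocytes were pooled, p-values measure the spread between pools, and in a pool, fewer oocytes with a transcript and less of it per oocyte cannot be told apart. Total counts on genes were 8671210, 7880467 and 8905681 in control replicates 1, 2 and 3, and 8465142, 9938743 and 8109613 in quercetin replicates 1, 2 and 3. A gene with 3 counts therefore stood at 0.328 to 0.375 CPM (counts scaled to a common library size), a floor that covers counting error only, since amplified reads that carry no molecular identifiers do not count separate molecules.

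The oocyte label was checked against markers. All 10 oocyte markers were detected and 9 were tested. *Figla*, the marker below the filter, had 2, 10 and 3 counts in controls and 6, 12 and 5 with quercetin. It was named after its values were seen. Highest per kilobase were *Dppa3*, a maternal chromatin protein, with 58227 to 92250 counts, and *Gdf9*, an oocyte growth factor, with 46443 to 59906. *Mos*, the kinase that holds metaphase arrest, followed with 9010 to 15235. *Ooep*, of the subcortical maternal complex, had 4367, 8081 and 6157 counts in controls and 1885, 2454 and 5410 with quercetin, an unadjusted p of 0.0412 and an adjusted p of 0.988 in edgeR. Its groups overlapped. Of 13 cumulus and granulosa markers, *Amh*, *Foxl2*, *Ptx3* and *Fst* were at 0 in all 6 pools and 3 were tested. The list summed to 89.2, 72.7 and 87.3 CPM in controls and to 95.9, 97.4 and 93.7 CPM with quercetin. Every quercetin pool lay above every control in this sum, and its part in the results was not tested. Most of it came from *Cyp19a1*, the aromatase gene, with 486 to 692 counts, followed by *Nr5a2* (96 to 146) and *Has2* (14 to 49). Of 10 markers of blood, endothelium, stroma and theca, 5 were at 0 in all pools. *Pecam1*, an endothelial adhesion molecule, had 249 to 319 counts and *Dcn*, a matrix proteoglycan, 10 to 30. The endothelial marker *Cdh5* was at 0. Besides *Ooep*, 0 tested genes of these 3 marker lists had an unadjusted p under 0.05, while 4.03% of all tested genes did. The groups did not overlap in *Gdf9* and *Cyp19a1*, both higher with quercetin, as were 5.42% of all tested genes. Below the filter, the cumulus markers *Tnfaip6* (0 counts in each control against 2, 8 and 4 with quercetin) and *Hsd17b1* (0 against 2, 2 and 2) separated the same way, and were named after their values were seen. *Hsd17b1* stayed under the floor in every pool, and genes below the filter are not part of the 5.42%.

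All 9 genes passed the filter on low counts and entered the comparison of 11842 genes, in which 0 of 9 members and 0 of all tested genes (0%) were called by edgeR's quasi-likelihood test with a Benjamini-Hochberg adjusted p below 0.05 and a change of more than 2-fold. At an unadjusted p under 0.05, 1 of 9 members (*Snap23*) stood beside 477 of all tested genes (4.03%), 253 higher and 224 lower with quercetin. Other tools called 11 genes (DESeq2), 16 (edgeR's likelihood ratio test) and 0 (limma-voom), with 0 of the 9 members among them. The quercetin pools lay entirely above the controls in 1 of 9 members and in 5.42% of tested genes, and entirely below in 0 of 9 and in 5.17%. With all 6 pools the member counts are thus close to the background of the whole table. Single pools moved both. At an unadjusted p under 0.05 there were 2 members without quercetin replicate 3, where 12.8% of all tested genes passed, and 0 without control replicate 1, control replicate 2, quercetin replicate 1 or quercetin replicate 2, where 1.98% to 3.93% did. Groups of 2 pools against 3 also separate in more genes. Without control replicate 3, 4 members were higher without overlap (10.4% of all tested genes) and 1 was lower (10.1%). Without quercetin replicate 1, 1 was higher (8.49%) and 1 lower (9.7%), and without quercetin replicate 3, 1 was higher (14.1%) and 1 lower (17.3%). Estimated differences were positive in 3 members and negative in 6, and the median log2 fold change of quercetin over control was -0.11, beside -0.03 over all tested genes. Exact permutation tests of 3 pools against 3 cannot go under 0.1.

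**Figure D1:**
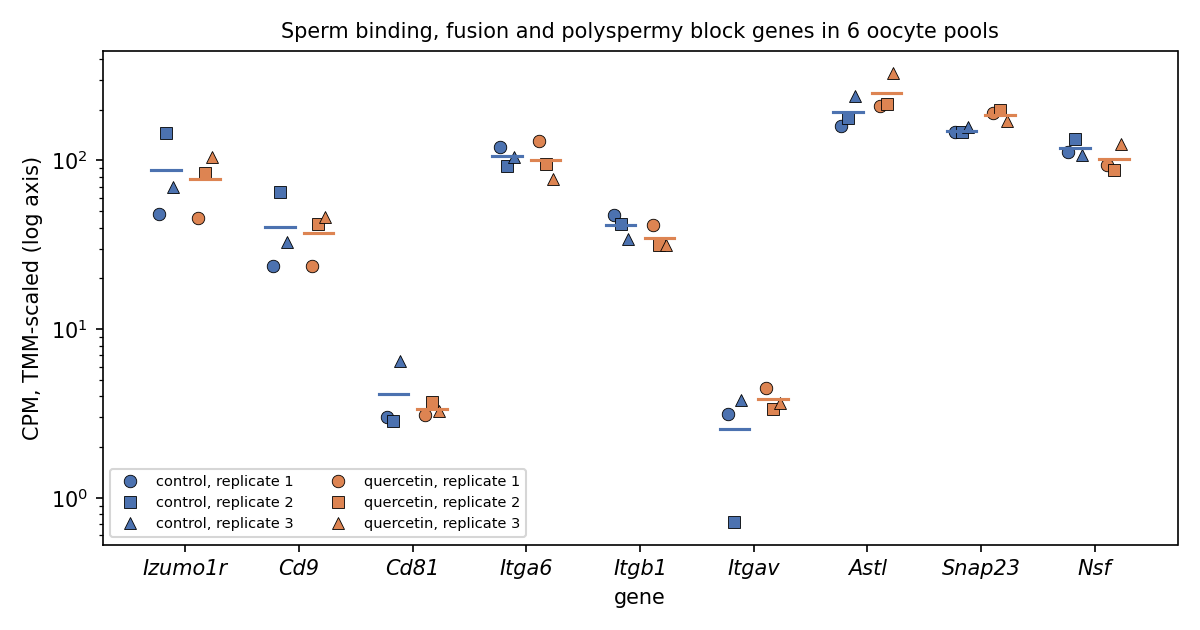
Each point is the level of 1 gene in 1 pool of 15 oocytes, in CPM scaled by TMM on a log axis, with controls in blue, quercetin pools in orange, a marker shape for each replicate number and a line at the mean of 3 pools. The groups overlap in every gene shown except *Snap23*, and *Izumo1r*, *Cd9* and *Itgav* spread most within a group.

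*Izumo1r* (ENSMUSG00000031933) encodes JUNO, the receptor for IZUMO1, which is held on the oocyte surface by a glycosylphosphatidylinositol (GPI) anchor and shed after fertilization. It lies on the minus strand of chromosome 9 from 14885814 to 14903949 (GRCm38), and its exons overlapped no other gene. Its counts were 428, 1220 and 618 in control replicates 1, 2 and 3 and 364, 768 and 892 in quercetin replicates 1, 2 and 3. Scaled by edgeR's TMM method, which is used for all CPM here, these were 47.9, 146 and 69.3 CPM in controls and 45.5, 84.0 and 105 CPM with quercetin. Control replicate 2 was the highest pool, replicate 1 was the lowest of each group, and the groups overlapped. The means were 87.8 ± 51.7 CPM in controls and 78.0 ± 30.0 CPM with quercetin (SD, n = 3). Quercetin over control gave a log2 fold change of -0.17 ± 0.42 (SE), with a 95% interval from -1.11 to 0.78 and an edgeR adjusted p of 0.994 (exact permutation p = 0.9). The interval corresponds to folds from 0.462 to 1.71, and a difference within that range could not be told from none in these pools. The pools spread 3.22-fold from lowest to highest, and 90.8% of tested genes varied less within groups. Single pools set the direction, since the log2 fold change was 0.41 without control replicate 2 and 0.11 without quercetin replicate 1. The related folate receptor genes were near the floor, *Folr1* with 2 to 5 counts and *Folr2* at 0 in all pools.

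*Cd9* (ENSMUSG00000030342) encodes a tetraspanin of the oocyte microvilli without which sperm bind but rarely fuse. It lies on the minus strand of chromosome 6 from 125460266 to 125494791. Of its exon length, 10.7% overlaps *Gm26728* on the other strand, and 10.8% of its 31-base words also occur in other genes, among them *Cd9-ps*, so part of its reads could be assigned elsewhere. Its counts were 211, 540 and 295 in controls and 190, 386 and 395 with quercetin. These were 23.6, 64.7 and 33.1 CPM in controls and 23.7, 42.2 and 46.3 CPM with quercetin. The same pools were high and low as for *Izumo1r*, and the groups overlapped. Means were 40.5 ± 21.5 and 37.4 ± 12.0 CPM (SD, n = 3). Quercetin over control gave a log2 fold change of -0.11 ± 0.38 (SE; 95% interval from -0.98 to 0.76), with an edgeR adjusted p of 0.995 and an exact permutation p of 1. It was 0.40 without control replicate 2 and 0.13 without quercetin replicate 1.

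*Cd81* (ENSMUSG00000037706), a tetraspanin related to *Cd9* that also takes part in fusion, lies on the plus strand of chromosome 7 from 143052739 to 143067934, and 3.61% of its exon length overlaps *R74862* on the other strand. Its counts were 27, 24 and 58 in controls and 25, 34 and 28 with quercetin. These were 3.02, 2.88 and 6.50 CPM in controls and 3.12, 3.72 and 3.29 CPM with quercetin. Control replicate 3 alone was high, and the other 5 pools lay close together. Its log2 fold change was -0.29 ± 0.38 (SE; 95% interval from -1.15 to 0.56), with an edgeR adjusted p of 0.988 and an exact permutation p of 1. Without control replicate 3 it was 0.20.

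*Izumo1r* and *Cd9* moved together from pool to pool in both groups, by more than the groups differed. Across the 6 pools the Pearson correlation of their log2 CPM was 0.996 (Spearman 0.94), 0.997 after removing the group means and 0.989 without the 2 pools farthest from the *Izumo1r* median. The points share each pool's library and scaling, and the 6 pools allow a description only. Without TMM scaling the correlation was 0.997. The ratio of *Cd9* to *Izumo1r* counts, which no scaling touches, was 0.493, 0.443 and 0.477 in controls and 0.522, 0.503 and 0.443 with quercetin. While *Izumo1r* spread 3.22-fold, that ratio thus stayed between 0.443 and 0.522. Of all 36 pairs among the 9 genes, this was the 1 pair above 0.9, and the median correlation of the pairs was -0.11. Correlations with the total counts were -0.33 for *Izumo1r* and -0.27 for *Cd9*. Correlations with the first and the second principal component of all genes (32.4% and 24.9% of the variance) were 0.70 and 0.64 for *Izumo1r* and 0.63 and 0.70 for *Cd9*. The part of depth and of these axes in the pattern was not tested.

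Among 7919 genes of at least 5 CPM, *Cd9* was the gene most like *Izumo1r* by this correlation, and *Izumo1r* the gene most like *Cd9*. Next to *Izumo1r* came *Pebp1*, a phosphatidylethanolamine-binding protein (0.995), and *Arl2*, a small GTPase (0.994). *Pebp1* had 250, 714 and 386 counts in controls and 192, 445 and 527 with quercetin. Next to *Cd9* came *Zp3* and *Sp140*, a nuclear body protein (both 0.995). Genes above 0.9 with *Izumo1r* made up 1.91% of those compared.

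The zona pellucida genes moved with this pair. *Zp3* encodes a structural zona protein that forms filaments with ZP2. Its counts were 2030, 6172 and 2877 in controls and 1670, 4229 and 4612 with quercetin. *Zp2*, the substrate of ovastacin, had 1990, 12980 and 5601 counts in controls and 1045, 7734 and 11260 with quercetin. *Zp1*, which cross-links zona filaments, had 1534, 3800 and 3202 counts in controls and 1318, 3429 and 4571 with quercetin. For each of these genes replicate 1 was the lowest pool of its group, and the groups overlapped. Correlations with *Izumo1r* over the 6 pools were 0.994 for *Zp3*, 0.954 for *Zp2* and 0.91 for *Zp1*. With the first and the second principal component of all genes they were 0.68 and 0.67 for *Zp1*. For *Zp2* they were 0.71 and 0.69, and for *Zp3* 0.65 and 0.70. The zona genes thus followed these axes of the whole table much as *Izumo1r* and *Cd9* did, and the part of the axes was not tested. *Zp2* spread most, 11.9-fold between its lowest and highest pool in CPM, and 99.2% of tested genes varied less within groups. The log2 fold changes were 0.13 ± 0.43 (*Zp1*), -0.07 ± 0.79 (*Zp2*) and -0.09 ± 0.45 (*Zp3*), each ± SE, with edgeR adjusted p-values of 0.995, 0.999 and 0.997. *Fetub*, which encodes an ovastacin inhibitor, had 78 to 110 counts and a log2 fold change of 0.13 (adjusted p = 0.990). Counted as a list, 0 of 4 zona genes were called or had an unadjusted p under 0.05. Over all tested genes, 0% were called and 4.03% had an unadjusted p under 0.05. The median log2 fold change of the 4 genes was 0.03, beside -0.03 over all tested genes.

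**Figure D2:**
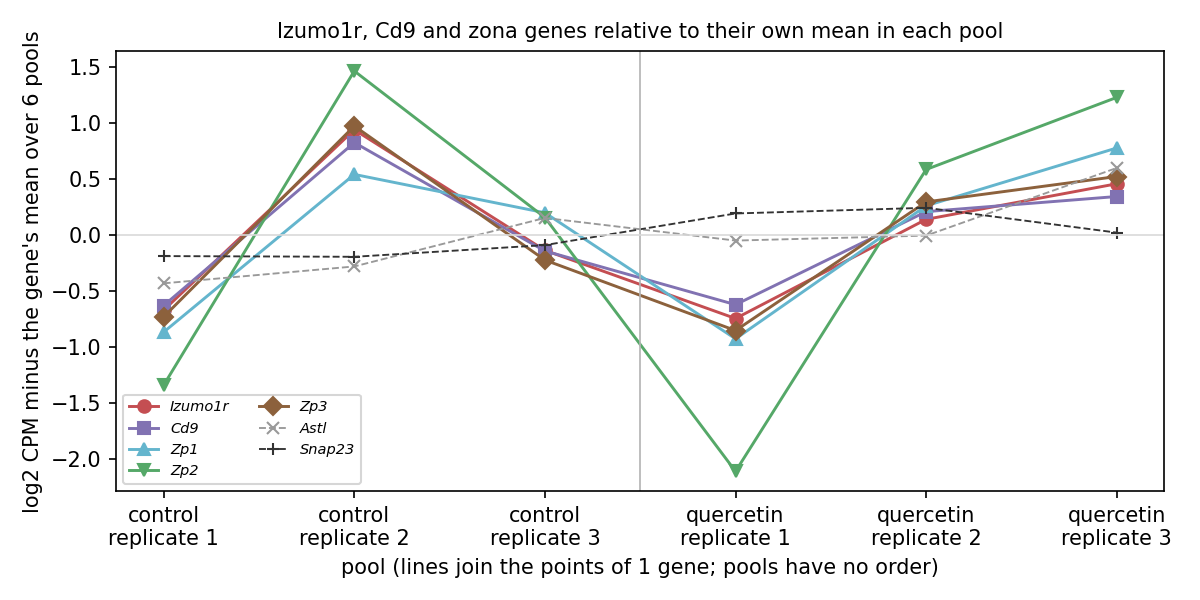
For each gene the log2 CPM in a pool is shown minus its own mean over the 6 pools, with controls left and quercetin pools right of the grey line, and lines joining the points of 1 gene (pools have no order). *Izumo1r*, *Cd9*, *Zp1*, *Zp2* and *Zp3* are lowest in replicate 1 of both groups, and of the genes drawn dashed, *Astl* is also lowest there but highest in replicate 3 of both groups, and *Snap23* is higher in every quercetin pool than in every control.

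The promoters of *Izumo1r*, *Cd9* and *Zp3* are shown, 300 bases each around the annotated start, from RefSeq on GRCm38.p6. These genes were picked after their correlation was seen, and a part of the promoters in that pattern was not tested. E-boxes are letter motifs that basic helix-loop-helix factors can bind. Capitals mark every CANNTG, the general E-box, a motif that reads the same on both strands. CACCTG, or CAGGTG on the other strand, is a subset of it. They lie at chr9:14903718-14904017 (minus strand), chr6:125494711-125495010 (minus strand) and chr5:135979855-135980154 (plus strand).
Izumo1r: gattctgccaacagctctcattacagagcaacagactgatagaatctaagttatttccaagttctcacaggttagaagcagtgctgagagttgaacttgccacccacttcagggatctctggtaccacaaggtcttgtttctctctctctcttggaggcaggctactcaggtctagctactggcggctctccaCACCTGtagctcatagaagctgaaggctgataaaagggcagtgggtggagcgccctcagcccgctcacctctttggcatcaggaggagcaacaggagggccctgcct
Cd9: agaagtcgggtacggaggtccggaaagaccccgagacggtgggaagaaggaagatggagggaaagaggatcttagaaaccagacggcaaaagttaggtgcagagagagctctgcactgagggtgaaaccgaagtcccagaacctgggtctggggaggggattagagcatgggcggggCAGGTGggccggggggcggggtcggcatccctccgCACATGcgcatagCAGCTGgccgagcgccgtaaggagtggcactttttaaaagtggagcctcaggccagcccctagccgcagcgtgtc
Zp3: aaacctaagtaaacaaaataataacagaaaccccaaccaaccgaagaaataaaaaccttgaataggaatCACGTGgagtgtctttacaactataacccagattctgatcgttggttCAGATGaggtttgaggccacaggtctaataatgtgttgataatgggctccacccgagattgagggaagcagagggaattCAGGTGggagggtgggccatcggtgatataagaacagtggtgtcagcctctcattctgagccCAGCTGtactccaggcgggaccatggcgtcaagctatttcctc

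The *Izumo1r* window held 1 CANNTG, which was a CACCTG, the *Cd9* window 3 and the *Zp3* window 4, of which 1 each was CACCTG or CAGGTG. Of 32817 promoters of the same length, 72.3% held a CANNTG, with a median of 1, and 20.2% held a CACCTG or CAGGTG. Of the other genes, *Cd81* and *Nsf* held 1 CANNTG and no CACCTG, and *Itgb1*, *Itgav* and *Snap23* held none. *Astl* has 2 listed starts, of which the upstream window held none and the downstream window 3, all CACCTG or CAGGTG. Entries were not found by symbol for *Itga6*, *Zp1* and *Zp2*. These are letter matches and not measured binding sites.

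Integrins are paired surface receptors for matrix proteins, and those of the oocyte were long studied as candidate sperm receptors. *Itga6* (ENSMUSG00000027111), the alpha-6 subunit of laminin receptors, lies on the plus strand of chromosome 2 from 71745616 to 71858416, and 6.15% of its 31-base words occur in other genes. Its counts were 1075, 773 and 929 in controls and 1049, 866 and 663 with quercetin. These were 120, 92.6 and 104 CPM in controls and 131, 94.7 and 77.8 CPM with quercetin. The quercetin pools held both the highest and the lowest value. The log2 fold change was -0.06 ± 0.21 (SE), with an edgeR adjusted p of 0.995, and was 0.04 without control replicate 1 and 0.10 without quercetin replicate 3. Against *Izumo1r* its levels ran the opposite way, with a correlation of -0.85 over the 6 pools.

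*Itgb1* (ENSMUSG00000025809), the beta-1 subunit that pairs with alpha-6 and many other alpha chains, lies on the plus strand of chromosome 8 from 128685654 to 128733200. Its counts were 424, 352 and 306 in controls and 330, 289 and 268 with quercetin. These were 47.4, 42.2 and 34.3 CPM in controls and 41.2, 31.6 and 31.4 CPM with quercetin. Quercetin replicates 2 and 3 lay below all controls, and replicate 1 lay among them. Its log2 fold change was -0.25 ± 0.20 (SE; 95% interval from -0.71 to 0.21), with an edgeR adjusted p of 0.988 and an exact permutation p of 0.2. The ratio of *Itga6* to *Itgb1* counts was 2.54, 2.20 and 3.04 in controls and 3.18, 3.00 and 2.47 with quercetin.

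*Itgav* (ENSMUSG00000027087), the alpha-v subunit of RGD-binding integrins, lies on the plus strand of chromosome 2 from 83724397 to 83806916, and 5.90% of its exon length overlaps *Gm13684* on the other strand. It had 28, 6 and 34 counts in controls and 36, 31 and 31 with quercetin. These were 3.13, 0.719 and 3.81 CPM in controls and 4.50, 3.39 and 3.64 CPM with quercetin. Control replicate 2 alone was low, and the other 5 pools lay close together. The log2 fold change was 0.58 ± 0.50 (SE; 95% interval from -0.56 to 1.71), with an edgeR adjusted p of 0.988, and it ran from 0.14 without control replicate 2 to 0.99 without control replicate 3.

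Of 24 other integrin subunits, 6 were tested and 0 had an unadjusted p under 0.05, beside 4.03% of all tested genes. Their median log2 fold change was 0.07, beside -0.03 over all tested genes. The highest by level per kilobase was *Itga9*, the alpha-9 subunit, with 4793 to 7020 counts, or 90.2 CPM per kb of exon on average. *Itga8* (309 to 409 counts) and *Itgb6* (125 to 331) followed, at 5.82 and 3.42 CPM per kb. Their log2 fold changes were 0.20, 0.05 and 0.02. Below the filter, *Itga4* (2, 4 and 5 counts against 6, 9 and 9) separated upward in CPM. It was named after its values were seen. Over all tested genes, 5.42% were higher without overlap, a share that leaves out genes below the filter.

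*Astl* (ENSMUSG00000050468) encodes ovastacin, the cortical granule protease that cleaves ZP2. It lies on the plus strand of chromosome 2 from 127338639 to 127357651, with no overlapping gene. Its counts were 1436, 1488 and 2147 in controls and 1676, 1974 and 2796 with quercetin. These were 161, 178 and 241 CPM in controls and 209, 216 and 328 CPM with quercetin. Replicate 3 was the highest pool of each group, and control replicate 3 lay above quercetin replicates 1 and 2. The means were 193 ± 42.1 and 251 ± 66.8 CPM (SD, n = 3). On the log2 scale the difference was 0.38 ± 0.22 (SE; 95% interval from -0.12 to 0.88), with an edgeR adjusted p of 0.988, an unadjusted p of 0.123 and an exact permutation p of 0.3. Without control replicate 3 the log2 fold change was 0.57, with an unadjusted edgeR p of 0.0406, and without quercetin replicate 3 it was 0.14.

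The genes most like *Astl* over the 6 pools were the processed pseudogene *Gm13384* (0.982), *Plat*, which encodes tissue plasminogen activator (0.976), and the transcribed pseudogene *Nlrp4g* (0.953). *Plat* had 10739, 12090 and 17826 counts in controls and 15237, 15468 and 23010 with quercetin. Replicate 3 was its highest pool in both groups. *Gm13384* had 68 to 117 counts and *Nlrp4g* 3721 to 5919.

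*Snap23* (ENSMUSG00000027287) encodes a SNARE protein of the plasma membrane that takes part in cortical granule fusion. It lies on the plus strand of chromosome 2 from 120567671 to 120601255, and 4.64% of its 31-base words occur in other genes, among them *Gm6615*. Its counts were 1317, 1224 and 1406 in controls and 1536, 1817 and 1452 with quercetin. These were 147, 147 and 158 CPM in controls and 192, 199 and 170 CPM with quercetin. Every quercetin pool lay above every control, as in 5.42% of all tested genes. The means were 151 ± 6.17 and 187 ± 14.8 CPM (SD, n = 3). On the log2 scale the difference was 0.31 ± 0.13 (SE; 95% interval from 0.01 to 0.62), or 1.24-fold. The unadjusted edgeR p was 0.0451 and the Benjamini-Hochberg adjusted p 0.988, so the difference did not pass the correction over all tested genes. The exact permutation p was 0.1, the smallest possible. The spread within groups was small, with 2.28% of tested genes varying less. DESeq2 gave an unadjusted p of 0.0552, edgeR's likelihood ratio test 0.0984 and limma-voom 0.0492, and the p was above 0.05 without any single pool except quercetin replicate 3, where it was 0.0168.

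*Nsf* (ENSMUSG00000034187) encodes the ATPase that takes SNARE complexes apart after fusion. It lies on the minus strand of chromosome 11 from 103821782 to 103954056, and 1.54% of its 31-base words occur in other genes. Its counts were 1000, 1126 and 958 in controls and 749, 801 and 1067 with quercetin. These were 112, 135 and 107 CPM in controls and 93.5, 87.6 and 125 CPM with quercetin. Quercetin replicates 1 and 2 lay below all controls, and quercetin replicate 3 lay among them. Its log2 fold change was -0.21 ± 0.18 (SE; 95% interval from -0.62 to 0.20), with an edgeR adjusted p of 0.988 and an exact permutation p of 0.3. Without single pools it ran from -0.38 (without quercetin replicate 3, unadjusted edgeR p of 0.0419) to -0.10 (without control replicate 2, 0.637). Its correlation with the total counts over the 6 pools was -0.83, and with the first principal component of all genes it was 0.94, beside -0.73 for *Snap23*. The part of depth and of that axis in these differences was not tested. The ratio of *Snap23* to *Nsf* counts was 1.32, 1.09 and 1.47 in controls and 2.05, 2.27 and 1.36 with quercetin, with overlap.

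Of 20 other SNARE genes and SNARE regulators in the table, 13 were tested, 0 were higher and 1 was lower at an unadjusted p under 0.05, beside 4.03% of all tested genes in both directions together. Their median log2 fold change was -0.03. The lower gene was *Stxbp5*, which encodes tomosyn, a protein that binds SNAREs and restrains fusion. Its counts were 963, 796 and 918 in controls and 663, 498 and 347 with quercetin. Every quercetin pool lay below every control in CPM, as in 5.17% of all tested genes. The log2 fold change was -0.78 ± 0.24 (SE; 95% interval from -1.34 to -0.23), with an unadjusted edgeR p of 0.0109 and an adjusted p of 0.988, which fails the correction. Under the 14 alternatives the unadjusted p ran from 0.000675 to 0.0363. *Vamp3*, a vesicle SNARE, had 213 to 500 counts (log2 fold change 0.23) and *Vamp4*, of the trans-Golgi, 131 to 247 (-0.03). Of 21 genes of regulated exocytosis, 10 were tested and 0 had an unadjusted p under 0.05, beside 4.03% of all tested genes. Their median log2 fold change was 0.02. *Rab3d*, a secretory GTPase, stood out by its spread, with 54, 101 and 428 counts in controls and 465, 319 and 79 with quercetin, 9.61-fold in CPM. The groups overlapped. *Syt1*, a calcium sensor, had 325 to 469 counts and *Rab3a*, a granule GTPase, 71 to 109.

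JUNO needs a GPI anchor to stay on the membrane. Of 28 genes of GPI-anchor making and attachment and folate receptors in the table, 20 were tested, with 1 higher and 1 lower at an unadjusted p under 0.05, beside 4.03% of all tested genes in both directions together. The median log2 fold change was 0.09. *Pigp*, a subunit of the transferase that starts anchor synthesis, had 297, 306 and 334 counts in controls and 616, 692 and 443 with quercetin. Every quercetin pool was above every control. Its log2 fold change was 0.93 ± 0.20 (SE; 95% interval from 0.48 to 1.38), with an unadjusted edgeR p of 0.00112 and an adjusted p of 0.792. DESeq2 gave it an adjusted p of 0.0264 at a log2 fold change of 0.95, under the fold criterion, and over all alternatives the adjusted p ran from 0.0264 to 1.00. *Pigg*, which modifies the anchor, was the lower gene, with 24, 18 and 27 counts in controls and 10, 13 and 13 with quercetin, a log2 fold change of -0.90 ± 0.35 (SE) and an edgeR adjusted p of 0.988. Its unadjusted p was above 0.05 under 6 of 14 alternatives, among them DESeq2 (0.126) and leaving out any 1 of control replicates 1 and 3 and quercetin replicates 1 and 2. For *Pigp* it was below 0.05 under all 14. Of the 20 tested genes, the groups did not overlap in 4 higher genes (*Pigp*, *Pigh*, *Pigk* and *Pigw*) and 3 lower genes (*Pigg*, *Pigm* and *Dpm2*), of which *Pigh*, *Pigk*, *Pigw*, *Pigm* and *Dpm2* were named after their values were seen. *Pigo* (0, 3 and 1 counts against 3, 4 and 8) and *Dpm3* (13, 6 and 6 against 5, 5 and 2), below the filter and also named after their values were seen, separated upward and downward in CPM. For *Pigo*, control replicate 2 and quercetin replicate 1 both had 3 counts, and only the scaling set them apart (0.360 and 0.375 CPM). Over all tested genes, 5.42% were higher and 5.17% lower without overlap, and genes below the filter are not part of these shares. *Pigf*, which adds ethanolamine phosphate to the anchor, was the highest by level, with 6513 to 10194 counts and 940 CPM per kb. *Pigx* had 218 to 402 counts.

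Of 31 other tetraspanins and partners, 13 were tested and 0 had an unadjusted p under 0.05, beside 4.03% of all tested genes. Their median log2 fold change was -0.01, beside -0.03 over all tested genes. The highest by level per kilobase were *Tspan14* (215 to 303 counts, 11.3 CPM per kb), *Tspan9* (406 to 526, 11.0) and *Tspan5* (400 to 723, 8.18). Of 5 genes of the microvillus scaffold, 2 were tested, 0 with an unadjusted p under 0.05, beside the same 4.03%. *Rdx*, which encodes radixin, a linker of membrane and actin, had 32325 to 44719 counts and a log2 fold change of 0.07, and *Msn* (moesin) had 21 to 46 counts and 0.37. Below the filter, *Slc9a3r1* (10, 10 and 11 counts against 6, 4 and 6) separated downward in CPM. It was named after its values were seen. Over all tested genes, 5.17% were lower without overlap, a share that leaves out genes below the filter.

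Levels were compared between the 9 genes as CPM per kb of exon, averaged over the 6 pools. *Astl* was highest at 86.8 (62.7 to 128), with 94.4% of tested genes at or below it. *Snap23* followed at 39.3 (34.2 to 46.3) and *Izumo1r* at 35.7 (19.6 to 63.0). The ranges of *Astl* and *Snap23* did not overlap, and those of *Snap23* and *Izumo1r* did. *Cd9* stood at 19.1 (11.5 to 31.7), *Nsf* at 13.2 (10.5 to 16.2), *Itga6* at 11.5 (8.62 to 14.5) and *Itgb1* at 9.32 (7.71 to 11.6), and the ranges of neighbours in this order overlapped, including *Izumo1r* and *Cd9*. *Cd81* was lower at 1.30 (0.999 to 2.26) and *Itgav* lowest at 0.298 (0.0669 to 0.418), each without overlap with the gene before it. The exon length took in every annotated exon of a gene, whether or not oocytes use it, and the order depends on it. In CPM the ranges of *Cd81* (2.88 to 6.50) and *Itgav* (0.719 to 4.50) overlapped. Those of *Astl* (161 to 328) and *Snap23* (147 to 199) did too. The order is that of transcripts, not of protein.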

How the data were processed

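The 6 pools were sequenced after amplification of polyadenylated RNA with the Smart-seq HT kit. The counts therefore cannot tell the amount of a stored message from the state of its poly(A) tail, which was not measured. The authors deposited counts, whole numbers of reads per Ensembl gene and pool, without normalization. Their methods name Hisat2 and GRCm38.91, while the submitters' processing notes list CASAVA 1.8 and TopHat2 2.0.6. The counting program and its handling of strand and of reads matching several genes are not given in the sources used here, so overlaps with other genes are stated. Symbols matched 53274 identifiers. Positions came from GENCODE M21 (GRCm38).

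At least 1 count was seen for 24476 genes, and filterByExpr (minimum count 10) kept 11842. They were scaled by TMM, with factors from 0.920 to 1.06, and tested by edgeR 4.0.16 in R 4.3.3 (glmQLFit and glmQLFTest, no covariate), and p-values were adjusted by Benjamini-Hochberg over all of them. CPM divide counts by total counts times the TMM factor. For single genes, log2 CPM (prior count 2) also went into an exact permutation test, two-sided. Shared sequence is the share of 31-base words in a gene's transcripts that other genes hold too. Annotation and plots used Python 3.11.15, numpy 2.4.6 and matplotlib 3.10.9.

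The alternatives tried were limma-voom (limma 3.58.1), DESeq2 1.42.0, the likelihood ratio test of edgeR, DESeq2 size factors, library size only, at least 1 count in total, at least 10 counts in every pool, the replicate block, and leaving out each pool. Those for *Stxbp5*, *Pigp* and *Pigg* were added after seeing the data. Named were the 9 genes, in each further list the 3 tested genes highest per kilobase, those with an unadjusted p under 0.05, the folate receptors and the zona genes, and for *Izumo1r*, *Cd9* and *Astl* the 3 genes of at least 5 CPM with the highest correlation. Marker and sperm genes at 0 in all pools (*Amh*, *Foxl2*, *Ptx3*, *Fst*, *Cdh5* and *Izumo1*) were named outside this rule, after their values were seen. The members and lists were chosen with earlier results of these data known.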

Additional observations from a re-analysis of the deposited data

How the results depend on the processing

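The 9 genes gave 0 calls under each of the 14 alternatives run, by adjusted p and fold change together. Over all tested genes, the count of 0 became 11 with DESeq2, 16 with edgeR's likelihood ratio test, 3 with at least 1 count in total and 0 to 7 without single pools. The 1 member with an unadjusted p under 0.05 became 0 with DESeq2, the likelihood ratio test, library size only and at least 1 count in total, and 0 to 2 without single pools. With the replicate block, 0 genes were called and the number of members stayed at 1, but it was *Astl* and not *Snap23*, each with an edgeR adjusted p of 0.906, and *Pigg* no longer had an unadjusted p under 0.05. The sources used here do not say whether same-numbered pools were handled together, and the main test did not pair them. The deviations of same-numbered pools from their group means correlated at 0.296, 0.101 and -0.03. Control replicates 2 and 3 did not correlate best with their own number. Deviations from a group mean of so few pools are tied to each other, so these values cannot decide whether the pools were paired. Members without overlap numbered 1 to 5 without single pools, where 8.07% to 14.1% of all tested genes were higher and 8.14% to 17.3% lower without overlap, and 1 under both other scalings. The direction turned in *Izumo1r* (0.41 without control replicate 2 and 0.11 without quercetin replicate 1), *Cd9* (0.40 and 0.13 without the same pools), *Cd81* (0.20 without control replicate 3) and *Itga6* (0.04 without control replicate 1 and 0.10 without quercetin replicate 3). Their log2 fold changes without single pools ran from -0.46 to 0.41, -0.38 to 0.40, -0.49 to 0.20 and -0.29 to 0.10. The other 5 members kept their sign in every alternative that could be fitted. *Itgav* has no value with at least 10 counts in every pool. With library size only, the median log2 fold change of all tested genes was -0.11 in place of -0.03. The cause of these shifts was not tested. Of the 9 genes, *Cd81* and *Itgav* had the fewest counts, 24 to 58 and 6 to 36, and the part of depth in their spread was not tested.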

Other observations

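Among 14 genes known for their roles on sperm, 8 were at 0 in all 6 pools, including *Izumo1*, the ligand of JUNO. Of the rest 2 were tested, 0 with an unadjusted p under 0.05, beside 4.03% of all tested genes. *Spam1*, known as a sperm hyaluronidase, had 444, 357 and 377 counts in control oocytes and 453, 548 and 431 with quercetin. In CPM every quercetin pool lay above every control, as it also did for *Tmem81* (24, 14 and 23 counts against 26, 35 and 26) and for 5.42% of all tested genes. The log2 fold changes were 0.31 and 0.54, with edgeR adjusted p-values of 0.988 for both genes. *Cyp19a1* likewise held 486 to 692 counts and *Pecam1* 249 to 319, while *Amh*, *Foxl2* and *Cdh5* were at 0. Where the reads on these genes lie within them was not analysed here.

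*Piga*, the catalytic subunit of the first enzyme of GPI-anchor synthesis, had 562, 440 and 60 counts in controls and 525, 89 and 510 with quercetin. Both groups held 1 pool far below the other 2. It was named after its values were seen.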
